A study of Mus musculus with 4 samples.

Results

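Described here are 9 genes whose enzymes make serine, move its carbon units through folate and spend them on thymidylate: Phgdh, Psat1, Psph, Shmt1, Shmt2, Mthfd1, Mthfd2, Mthfd1l and Tyms. They were picked by name from the 23997 gene symbols of the deposited expression table, with earlier results of these data known. Each had 1 row there. RNA was sequenced from mesenchymal stem/progenitor cells (MSPC), adherent stromal cells of the bone marrow of C57BL/6 mice, in culture. There were 2 libraries of wild-type (WT) cultures and 2 of Asxl1-/- cultures, in which a chromatin regulator that works with Polycomb and BAP1 is deleted. Both groups were kept in MesenCult medium with 20% supplement at passages 5 to 10, with a stated confluency of 80 to 90%. The labels name no treatment and do not give the passage of each library, so the groups may differ in it. The labels do not say how Asxl1 was deleted, or whether a library came from 1 animal, from pooled animals or from a clone. Replicates were numbered in accession order and pair no samples.

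Asxl1 itself had 14.6 and 11.2 FPKM in WT against 0.273 and 0.312 FPKM in Asxl1-/-, as the labels say. FPKM are fragment counts scaled by transcript length and library size, so levels can be set side by side between genes. Relative depths of the libraries, read from the smallest steps in FPKM, lay between 0.956 and 1.03, and the number of reads is unknown. Of 13 stromal markers, Col1a1, Col1a2, Col3a1, Pdgfrb, Cxcl12 and Ly6a were above 49 FPKM in every library. Others were low in some libraries: Pdgfra stood at 4.78 FPKM in WT replicate 2, Nt5e at 0.493 and 0.507 FPKM in Asxl1-/-, and Eng at 0.912 FPKM in WT replicate 2 and 0.906 and 0.571 FPKM in Asxl1-/-. The niche marker Lepr reached at most 0.0426 FPKM. Macrophage markers were high in 1 library of each genotype. Their FPKM summed to 7.52 in WT replicate 1 and 567 in WT replicate 2, and to 81.1 and 380 in Asxl1-/- replicates 1 and 2; in Asxl1-/- replicate 1 Fcer1g made up 72.2 of that sum. Of 7 endothelial markers 6 were below 1 FPKM in all libraries, as were all 7 erythroid and lymphoid markers.

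Serine is made from a glycolytic intermediate in a chain of 3 enzymes: Phgdh oxidizes phosphoglycerate, Psat1 transfers an amino group to the product and Psph removes the phosphate. Serine hydroxymethyltransferases, Shmt1 in cytosol and nucleus and Shmt2 in mitochondria, then pass a carbon unit from serine to tetrahydrofolate, leaving glycine. Mthfd2 and Mthfd1l carry this unit through the mitochondrial folate pool to formate, Mthfd1 takes it up again in the cytosol, and purines, methionine and thymidylate draw on it. Tyms uses it to methylate deoxyuridylate, the only route of new thymidylate for DNA. Dividing cells are known to depend on these steps, and in many cell types the transcription factor Atf4 raises the serine and mitochondrial folate genes when amino acids run short.

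The RNA of these genes stood lower in the Asxl1-/- libraries, but no single gene passed the test. Differences were tested with limma on log2(FPKM + 1) over the 11481 genes whose mean reached 1 FPKM, a filter that all 9 genes passed in either group alone. The log2 fold change, Asxl1-/- minus WT on that scale, was negative for 9 of 9, against 6524 of the 11481 genes tested. The median over the 9 genes was -0.98, against -0.07 for all genes tested. At an adjusted p under 0.05, 0 of 9 were called, against 0.0261% of all genes (3 small nucleolar RNA genes), with limma adjusted p between 0.502 and 0.869. The deleted gene Asxl1 was not called either, at a log2 fold change of -3.41 and a limma adjusted p of 0.215. With 2 libraries a group, 0 of 9 called therefore does not show that these genes are unchanged. An unadjusted limma p under 0.05 was reached by 5 of 9, all on the lower side, where 5.41% of all genes did so. On the higher side 0 of 9 did, against 2.51%. For 7 of 9 genes the WT libraries were both above the Asxl1-/- libraries, against 25.2% of all genes, and for 0 of 9 both were below them, against 15.6%. Psph and Tyms were the genes in which the groups overlapped. The 9 genes were chosen with earlier results of these data known. Counts above the shares of all genes may follow partly from that choice.

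**Figure D1:**
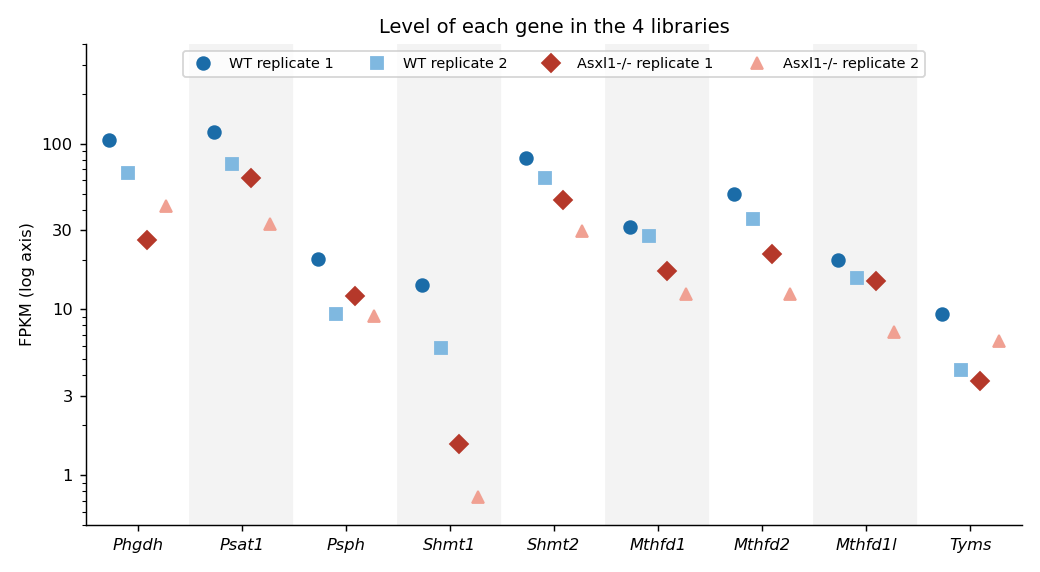
FPKM (log axis) of the 9 genes in the 4 libraries, 1 point a library, with WT in blue and Asxl1-/- in red. WT replicate 1 is the highest point of every gene, and the red points lie below the blue ones except in Psph and Tyms.

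Phgdh, the entry enzyme of serine synthesis, stood at 106 and 66.9 FPKM in WT and at 26.2 and 42.0 FPKM in Asxl1-/-. The groups did not overlap, and the lowest WT value was 1.59 times the highest Asxl1-/- value. Means were 86.5 ± 27.7 and 34.1 ± 11.2 FPKM (SD, n = 2 each), with a log2 fold change of -1.32, a standard error of 0.38 and a limma adjusted p of 0.562. Phgdh lies on mm10 chromosome 3 (98313171 to 98339969, minus strand), and that chromosome as a whole leaned the same way. Its 559 tested genes had a median log2 fold change of -0.48, and deviated from their mean over the 4 libraries by a median of 0.42 and 0.08 in WT replicates 1 and 2 and of -0.44 and -0.05 in Asxl1-/- replicates 1 and 2. With each library's chromosome medians removed the log2 fold change of Phgdh was -0.83 (limma adjusted p = 0.515). In both Phgdh and the chromosome median, replicate 1 was the lower of the Asxl1-/- libraries. Beyond this removal, the part of the chromosome in the result was not tested.

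The 250 bases before the RefSeq start of Phgdh are shown because it is the entry gene of the chain. CCAAT and TATAAA matches are in capitals; they share 1 base in the upstream pair. The window is chr3:98339970-98340219, minus strand, build GRCm38.p6 (the mm10 assembly).
Phgdh: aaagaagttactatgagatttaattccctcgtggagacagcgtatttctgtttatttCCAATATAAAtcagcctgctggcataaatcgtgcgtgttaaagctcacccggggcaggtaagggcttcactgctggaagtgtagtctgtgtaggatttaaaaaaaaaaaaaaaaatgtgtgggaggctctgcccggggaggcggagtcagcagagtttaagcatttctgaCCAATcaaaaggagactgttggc

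Psat1 had the highest RNA level of the chain in 3 of 4 libraries, with 117 and 75.1 FPKM in WT and 61.9 and 32.7 FPKM in Asxl1-/-. The groups did not overlap, but WT replicate 2 and Asxl1-/- replicate 1 lay close, at 1.21 times. Its log2 fold change of -1.04 (standard error 0.42, limma adjusted p = 0.632) ran from -1.49 to -0.59 with 1 library left out. Psph, the last step, had much less RNA, with 20.3 and 9.36 FPKM in WT and 12.1 and 9.09 FPKM in Asxl1-/-. Only WT replicate 1 stood out for Psph, and the other 3 libraries lay between 9.09 and 12.1 FPKM. The Psph log2 fold change of -0.37 (standard error 0.42, limma adjusted p = 0.844) became 0.15 without WT replicate 1. Group means along the chain thus stood 2.54, 2.03 and 1.40 times apart for Phgdh, Psat1 and Psph, and only the last had overlapping groups. That order did not hold with chromosome medians removed, where the log2 fold changes were -0.83, -1.08 and -0.29, the largest being that of Psat1.

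Among the serine hydroxymethyltransferases, the cytosolic Shmt1 had the largest fold change of the 9 genes. It stood at 14.1 and 5.84 FPKM in WT and at 1.54 and 0.733 FPKM in Asxl1-/-. The groups were far apart, the lowest WT value being 3.79 times the highest Asxl1-/- value, although the WT libraries themselves differed. Means were 9.98 ± 5.85 and 1.14 ± 0.571 FPKM (SD, n = 2 each), a ratio of 8.78. On the log2 scale this was -2.28 (standard error 0.49, limma adjusted p = 0.502), within the lowest 0.592% of all genes tested. Because the Asxl1-/- values are near 1 FPKM, the pseudocount shrinks this value: it was -2.97 with a pseudocount of 0.1. Its mitochondrial counterpart Shmt2 stood at 82.4 and 62.2 FPKM in WT and at 45.5 and 29.6 FPKM in Asxl1-/-. For Shmt2 the groups did not overlap, with a log2 fold change of -0.94, a standard error of 0.32 and a limma adjusted p of 0.605.

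Shmt1 made up a smaller share of the RNA of this enzyme pair in Asxl1-/-: 14.6% and 8.58% of their summed FPKM in WT, and 3.28% and 2.41% in Asxl1-/-. The log2 ratio of Shmt2 over Shmt1 within a library was 2.46 and 3.21 in WT and 4.19 and 4.14 in Asxl1-/-, so the groups did not overlap. The difference of 1.33 had a two-sided exact permutation p of 0.333, the smallest that 2 against 2 libraries can give. Without WT replicate 1 it was 0.96. At a pseudocount of 0.1 it was 2.01.

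The windows upstream of these paralogues are printed because this pair's ratio separated the groups. Capitals mark matches to CCAAT and, separately, to the GC box GGGCGG, on either strand; Shmt2 has none of them. The windows are chr11:60811266-60811515 and chr10:127522445-127522694, both minus strand, build GRCm38.p6. In the Shmt1 window, 2 of the 4 GGGCGG matches overlap by 1 base. GC content was 60.0% for Shmt1 and 40.8% for Shmt2, with 13 and 7 CpG.
Shmt1: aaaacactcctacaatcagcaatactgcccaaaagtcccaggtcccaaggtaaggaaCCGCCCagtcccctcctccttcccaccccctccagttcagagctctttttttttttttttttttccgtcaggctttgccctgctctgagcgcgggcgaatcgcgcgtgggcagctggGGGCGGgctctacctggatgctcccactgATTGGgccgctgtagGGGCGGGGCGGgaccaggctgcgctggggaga
Shmt2: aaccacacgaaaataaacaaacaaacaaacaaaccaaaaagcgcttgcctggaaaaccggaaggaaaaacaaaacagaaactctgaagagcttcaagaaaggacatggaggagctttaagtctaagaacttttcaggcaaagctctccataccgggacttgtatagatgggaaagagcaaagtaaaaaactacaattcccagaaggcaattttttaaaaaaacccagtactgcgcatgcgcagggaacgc

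The 3 folate interconversion genes were all lower in both Asxl1-/- libraries than in both WT libraries. Mthfd2, the mitochondrial dehydrogenase and cyclohydrolase, stood at 49.6 and 35.05 FPKM in WT and at 21.7 and 12.4 FPKM in Asxl1-/-. Its groups were apart by 1.62 times at the nearest values, with a log2 fold change of -1.29, a standard error of 0.37 and a limma adjusted p of 0.562. Mthfd1, the cytosolic enzyme with all of these activities on 1 chain, had the closest replicates in WT, at 31.4 and 27.9 FPKM, against 17.0 and 12.4 FPKM. Its log2 fold change of -0.98 had the smallest standard error of the 9 genes, 0.26 (limma adjusted p = 0.552), and ran from -1.19 to -0.77 with 1 library left out. Mthfd1l, the mitochondrial synthetase that frees formate, stood at 19.8 and 15.4 FPKM in WT and at 14.8 and 7.30 FPKM in Asxl1-/-. WT replicate 2 and Asxl1-/- replicate 1 of Mthfd1l differed by only 1.04 times, and the log2 fold change of -0.69 (standard error 0.39, limma adjusted p = 0.686) was -0.23 without Asxl1-/- replicate 2. Shmt2 and Mthfd1l both lie on chromosome 10, whose 579 tested genes had a median log2 fold change of 0.27, the opposite sign. With chromosome medians removed the log2 fold change of Mthfd1l was -0.999. Mthfd2 lies on chromosome 6, whose 562 tested genes had a median of -0.21, the same sign as Mthfd2. With chromosome medians removed the log2 fold change of Mthfd2 was -1.08.

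The Mthfd2 window carries the most CCAAT matches of the set and is given for that. It is chr6:83317605-83317854, minus strand, build GRCm38.p6, with CCAAT matches on either strand in capitals.
Mthfd2: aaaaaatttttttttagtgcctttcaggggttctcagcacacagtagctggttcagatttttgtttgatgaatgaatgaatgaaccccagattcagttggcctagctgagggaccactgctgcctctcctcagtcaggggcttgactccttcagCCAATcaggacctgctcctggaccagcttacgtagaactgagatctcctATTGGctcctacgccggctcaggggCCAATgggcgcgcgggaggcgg

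Tyms had little RNA in these cultures and its groups overlapped. It stood at 9.41 and 4.33 FPKM in WT and at 3.68 and 6.44 FPKM in Asxl1-/-, so Asxl1-/- replicate 2 was above WT replicate 2. The log2 fold change of -0.34 (standard error 0.45, limma adjusted p = 0.869) was 0.15 without WT replicate 1. A processed pseudogene, Tyms-ps on chromosome 10, has a row of its own with 1.05 and 0.620 FPKM in WT and 0.593 and 0.958 FPKM in Asxl1-/-, the same order of libraries as Tyms. How reads were shared between the 2 rows is not given in the sources used here, so the Tyms level is uncertain. Tk1, the kinase that salvages thymidine for the same product, stood at 27.3 and 26.7 FPKM against 13.1 and 11.3 FPKM (log2 fold change -1.09, standard error 0.22, limma adjusted p = 0.502). The salvage kinase had more RNA than Tyms in every library.

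**Figure D2:**
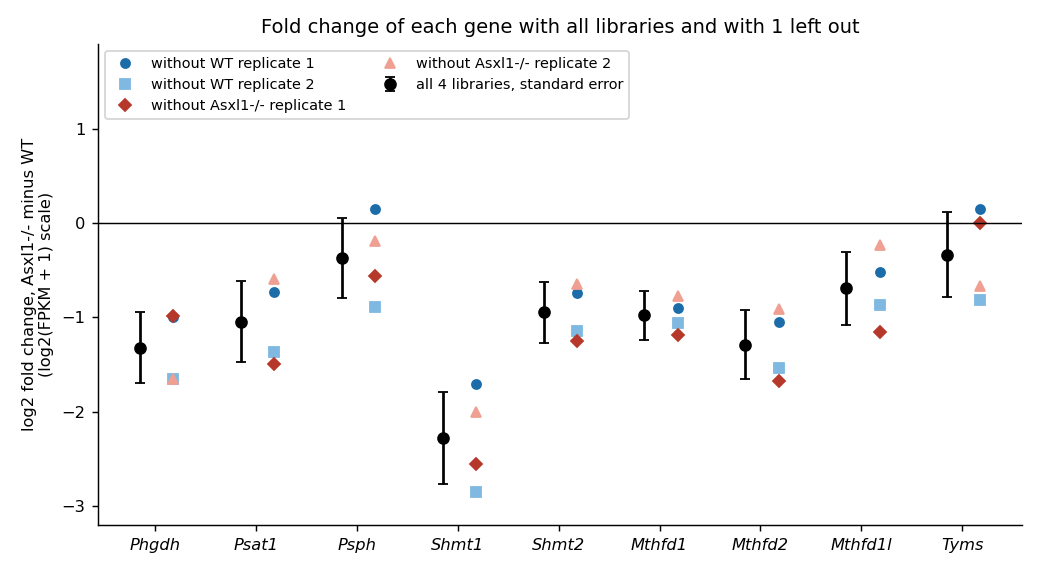
Log2 fold change of the 9 genes, Asxl1-/- minus WT on the log2(FPKM + 1) scale; black points are fits with all 4 libraries with standard errors, coloured points are fits with 1 library left out. The coloured points of 7 genes stay below 0, and Psph and Tyms are above 0 without WT replicate 1, at 0.15 each.

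Ratios of (FPKM + 1) within a library hardly depend on the scaling between libraries, but they do hold any lean of a chromosome. Phgdh over Tyms, the first gene of the chain against the last, had log2 ratios of 3.36 and 3.67 in WT and of 2.54 and 2.53 in Asxl1-/-. The groups did not overlap, and the difference of -0.98 had an exact permutation p of 0.333. With chromosome medians removed it was -0.57, still without overlap. Mthfd2 over Mthfd1, mitochondrial against cytosolic, had log2 ratios of 0.64 and 0.32 in WT and of 0.34 and -0.0011 in Asxl1-/-, so the groups overlapped (difference -0.31, exact permutation p = 0.667). With chromosome medians removed this difference was -0.12, again with overlap. Mthfd1l over Mthfd1 gave -0.64 and -0.81 in WT and -0.19 and -0.69 in Asxl1-/-, also with overlap (difference 0.28, exact permutation p = 0.667), and the difference was -0.044 with chromosome medians removed. Of these 3 mitochondrial over cytosolic pairs, the groups did not overlap in the Shmt pair alone, also with chromosome medians removed (difference 1.10).

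**Figure D3:**
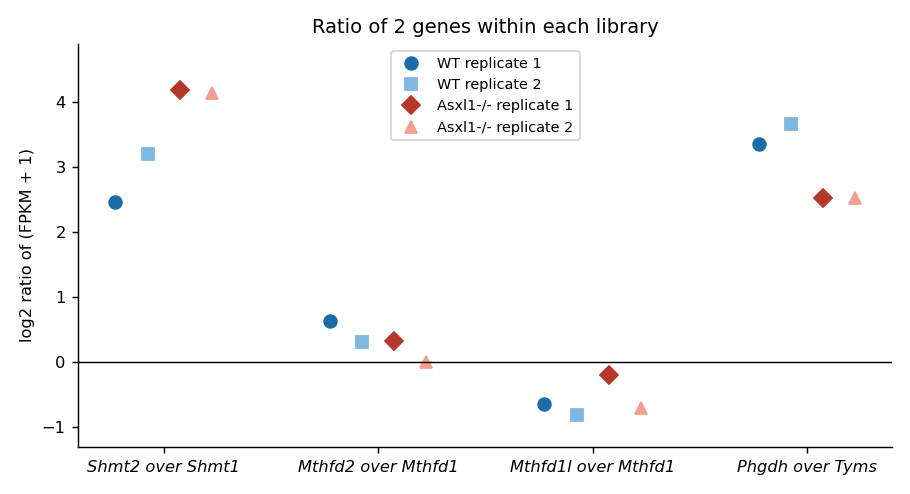
Log2 ratio of (FPKM + 1) of 4 gene pairs within each library, 1 point a library. Shmt2 over Shmt1 is higher in both Asxl1-/- libraries, at 4.19 and 4.14 against 2.46 and 3.21, Phgdh over Tyms is lower in both, and the other pairs overlap.

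The order of levels was much alike in all libraries. Psat1, Phgdh and Shmt2 held the top 3 places in each of the 4 libraries, in changing order, and together the 9 genes summed to 450.3 and 302.1 FPKM in WT and to 204.2 and 152.7 FPKM in Asxl1-/-. Tyms was the lowest in both WT libraries and Shmt1 in both Asxl1-/- libraries. Mthfd2 and Mthfd1 came next in every library, and in Asxl1-/- replicate 2 they stood at the same 12.4 FPKM. Mean levels of Phgdh, Psat1 and Shmt2 were above those of 90.0%, 91.8% and 88.9% of all genes tested, and those of Shmt1 and Tyms above 29.96% and 32.1%.

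Libraries of a group differed for these genes as well. WT replicate 1 was the highest of the 4 libraries for 9 of 9 genes, against 37.4% of all genes tested, and it lay above WT replicate 2 in 9 of 9, against 56.0%. Asxl1-/- replicate 2 was the lowest for 7 of 9, the exceptions being Phgdh and Tyms, for which it was Asxl1-/- replicate 1. Between the Asxl1-/- libraries, replicate 1 lay above replicate 2 in 7 of 9, against 50.2% of all genes tested. Median deviations of the set from the mean over libraries were 0.70 and 0.27 in WT replicates 1 and 2, and -0.27 and -0.77 in Asxl1-/- replicates 1 and 2. Without WT replicate 1 the median log2 fold change of the 9 genes was -0.74, and 1 gene, Shmt1, had an unadjusted limma p under 0.05. Without Asxl1-/- replicate 2 these were -0.67 and 2 genes, Phgdh and Shmt1. Between the libraries low in macrophage markers (replicates 1) the median difference was -0.91, while the replicates 2, high in them, gave -1.05; each has 1 library a group and no test. In the latter pair Tyms was higher in Asxl1-/-, by 0.48. In bulk RNA, fewer cells of a type and less RNA per cell cannot be told apart.

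Proliferation genes stood lower in the same libraries. This list too was chosen with earlier results of these data known. Of its 34 tested genes, 32 had both Asxl1-/- libraries below both WT libraries, against 25.2% of all genes. The list had a median log2 fold change of -1.11, and limma called 0 at the adjusted threshold. An unadjusted limma p under 0.05 was reached by 25, all lower, against 5.41% of all genes on that side. Median deviations of the list were 0.94 and 0.28 in WT replicates 1 and 2 and -0.56 and -0.57 in Asxl1-/- replicates 1 and 2. The proliferation antigen Mki67 had 19.2 and 12.6 FPKM in WT against 4.72 and 8.07 FPKM, and the replication clamp Pcna 157 and 95.5 against 85.8 and 53.7 FPKM. WT replicate 1 was the highest library for 31 of the 34, and 17 of the 34 were lower in Asxl1-/- replicate 2 than in replicate 1, with Mki67 and Pcna on opposite sides. The part of cell division in the levels of the 9 genes was not tested.

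The other genes of the pathway were taken from lists chosen with earlier results of these data known. None of their tested genes passed limma's adjusted threshold. An unadjusted limma p under 0.05 on the lower side was reached by 5.41% of all genes tested. In the lists, 2 of 12 other folate, 2 of 8 methionine cycle, 2 of 13 purine and 2 of 18 tRNA synthetase genes reached it. So did 4 of 20 pyrimidine and 3 of 19 amino acid response genes, and 0 of 4 glycine cleavage and 0 of 8 serine transport genes. On the higher side 1 of 19 amino acid response genes did so, against 2.51% of all genes. Among 12 tested of 15 other folate enzymes and carriers the median log2 fold change was -0.24. Both Asxl1-/- libraries were below both WT libraries in 5 of the 12, against 25.2% of all genes. The folate importer Slc19a1 had 9.87 and 10.1 FPKM in WT against 4.75 and 5.65 FPKM (log2 fold change -0.83, standard error 0.23, limma adjusted p = 0.557). The mitochondrial formyl-folate dehydrogenase Aldh1l2 stood at 28.0 and 21.5 FPKM against 14.8 and 3.97 FPKM. In the glycine cleavage system, with 4 of 4 tested and a median of -0.04, the carrier protein Gcsh stood at 58.6 and 28.4 FPKM against 22.1 and 22.5 FPKM, without overlap. Of 11 genes of serine transport and use 8 were tested, with a median of 0.16. The log2 fold change was negative for 3 and positive for 5, against 6524 and 4957 of the 11481 genes tested. The WT libraries were both above the Asxl1-/- libraries in 0 of these 8, against 25.2% of all genes. Sptlc2, a subunit of the enzyme that joins serine to a fatty acyl group to start sphingolipids, had 12.9 and 16.7 FPKM in WT against 28.0 and 19.8 FPKM (log2 fold change 0.65, standard error 0.29, limma adjusted p = 0.632).

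The purine, pyrimidine and methionine cycle lists had less negative medians than the 9 genes, a difference that was not tested. In purine synthesis 12 of 13 genes had a negative log2 fold change, against 6524 of the 11481 genes tested, with a median of -0.40. For 9 of 13 both Asxl1-/- libraries lay below WT, against 25.2% of all genes. Gart, which uses formyl-folate to build the purine ring, had 27.3 and 27.0 FPKM in WT against 17.4 and 17.4 FPKM (log2 fold change -0.61, standard error 0.21, limma adjusted p = 0.613). Pyrimidine and deoxynucleotide genes had a median of -0.22 over 20, with 7 below WT in both libraries and 2 above, against 25.2% and 15.6% of all genes. Dctd, the deaminase that supplies the substrate of Tyms, stood at 22.04 and 14.4 FPKM against 6.27 and 5.38 FPKM. Rrm2, the small subunit of ribonucleotide reductase, stood at 34.1 and 74.1 FPKM against 28.9 and 17.1 FPKM, with WT replicate 2 the highest library. In the methionine cycle and transsulfuration, with 8 of 12 tested and a median of -0.33, the cysteine-forming enzyme Cth had 8.88 and 6.31 FPKM in WT against 0.959 and 0.806 FPKM (log2 fold change -2.18, standard error 0.31, limma adjusted p = 0.407), and it too lies on chromosome 3.

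Among amino acid response genes, many of them known targets of Atf4, 16 of 19 tested had a negative log2 fold change and 3 a positive one. Of all 11481 genes tested, 6524 had a negative one. The median was -0.60, with 8 genes below WT in both Asxl1-/- libraries and 2 above, against 25.2% and 15.6% of all genes. Atf4 RNA itself stood at 200 and 156 FPKM in WT and at 166 and 138 FPKM in Asxl1-/-, with overlap. Only RNA was measured, so the protein level and activity of Atf4 were not tested. The asparagine synthetase Asns stood at 65.4 and 60.0 FPKM against 54.7 and 23.3 FPKM, with Asxl1-/- replicate 2 far below the rest. The leucine carrier subunit Slc7a5 stood at 35.6 and 36.4 FPKM against 11.4 and 8.55 FPKM (log2 fold change -1.76, standard error 0.25, limma adjusted p = 0.407), and the alanine transaminase Gpt2 at 17.7 and 9.52 against 4.902 and 4.001 FPKM. The stress gene Nupr1 went the other way, at 34.6 and 33.1 FPKM in WT against 137 and 64.2 FPKM (log2 fold change 1.45, standard error 0.42, limma adjusted p = 0.562). Cytoplasmic tRNA synthetases had a median of -0.44 over 18 genes, 4 of them with a positive log2 fold change. In both Asxl1-/- libraries 9 were below WT and 1 above, against 25.2% and 15.6% of all genes. Among the 9 was the seryl-tRNA synthetase Sars, at 93.3 and 59.9 FPKM against 42.2 and 36.8 FPKM.

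**Figure D4:**
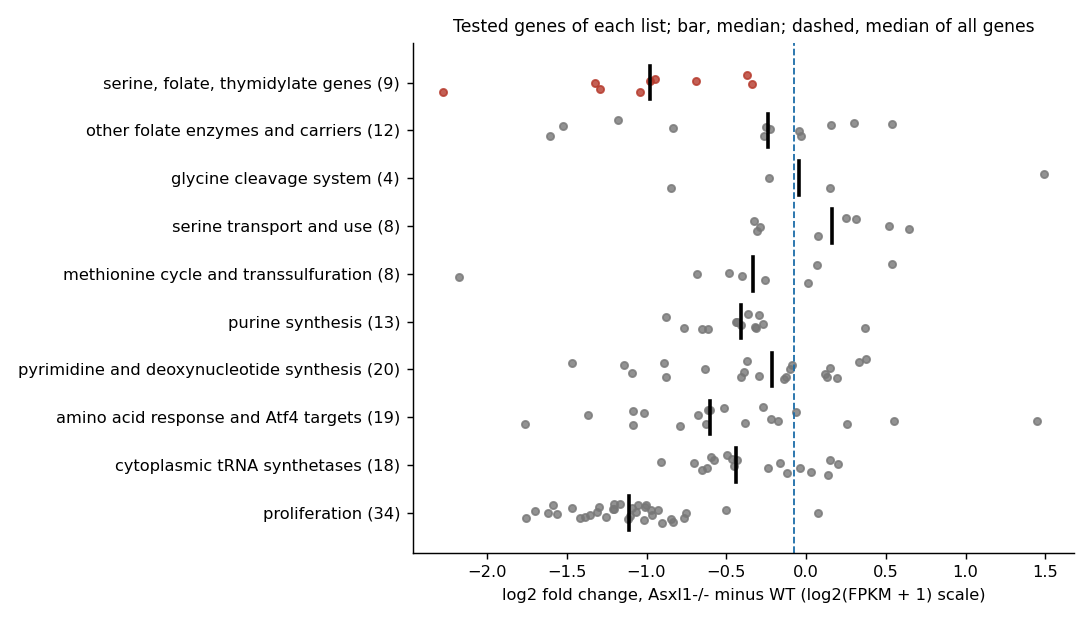
Log2 fold change of each tested gene by list, Asxl1-/- minus WT on the log2(FPKM + 1) scale, with the number tested in brackets; bars are list medians and the dashed line is the median of all genes, -0.07. The medians of the 9 genes and of the proliferation list, -0.98 and -1.11, are the lowest of those drawn.

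Likeness of pattern was measured as the root mean square difference between log2(FPKM + 1) profiles centred over the 4 libraries, among 8387 other genes whose mean reached 5 FPKM. Nearest to Phgdh were Depdc1a (0.0419), P4ha3 (0.0562) and Plk4 (0.0565), of which Depdc1a and Plk4 lie on chromosome 3 as Phgdh does. Nearest to Mthfd2 were Rfc4 (0.0924), Arhgap28 (0.0979) and Pola2 (0.1004). Within the set Mthfd2 was closest to Psat1 (0.143), Shmt2 (0.185) and Mthfd1 (0.228), and farther from Phgdh (0.505) and Tyms (0.715). The genes nearest to Tyms were Ncbp1 (0.0435), Mccc2 (0.0496) and Ubap2 (0.0506), all highest in WT replicate 1 with Asxl1-/- replicate 2 above WT replicate 2. These names are a description over 4 libraries.

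Motif letters were searched on both strands of the 9 windows of 250 bases before the RefSeq start. CCAAT was found in 6 of 9 (Phgdh, Psat1, Psph, Shmt1, Mthfd1 and Mthfd2), against 33.8% of the 32851 RefSeq windows outside chromosome 18. It was not found for Shmt2, Mthfd1l and Tyms. GGGCGG was found in 5 of 9 against 32.7%, CACGTG in Tyms alone against 6.02% and TATAAA in Phgdh alone against 12.4%. TGATGNAA and TTTNGCGC were each found in 0 of 9, against 3.45% and 1.13%. CpG numbered 6 to 23 in the 9 windows, against a median of 6 over those 32851 windows. A match is a stretch of letters, not a shown binding site.

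In the authors' deposited table, made with Cuffdiff, 0 of the 9 genes are marked significant, against 0.939% of 12881 tested genes. In the authors' deposited table all 9 have a negative log2 fold change, a count for which no share of all genes was taken there. An unadjusted Cuffdiff p under 0.05 on the lower side is given for 4 of 9, against 4.11% of the genes tested there. The authors' deposited table gives Shmt1 a log2 fold change of -3.002 with a q of 0.0827, and Phgdh -1.22 with a q of 0.321. For Mthfd2 and Mthfd1 the authors' deposited table gives -1.19 and -0.895, with q of 0.463 and 0.649. That table rests on the same libraries and is no independent support.

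Positions are on mm10. Psat1 lies on chromosome 19 (15905123 to 15925059), Psph on chromosome 5 (129765558 to 129787253), Shmt1 on chromosome 11 (60788897 to 60811265) and Shmt2 on chromosome 10 (127517123 to 127522444), all on the minus strand. Mthfd1 lies on chromosome 12 (76255232 to 76319820) and Mthfd1l on chromosome 10 (3973075 to 4167081), both on the plus strand. Mthfd2 is on chromosome 6 (83305704 to 83317604) and Tyms on chromosome 5 (30058200 to 30073625), both on the minus strand. In GENCODE M21, Psph overlaps the highly expressed Cct6a (135 to 205 FPKM) on the other strand by 452 bases. Shmt1 runs there from 60788104 to 60811718 and overlaps Smcr8 by 184 bases on the other strand. The span used here for Shmt1 is shorter at both ends, and an overlap of that length at either end would lie outside it. Shmt2 overlaps Ndufa4l2 by 32 bases on the other strand, and Mthfd1 holds an antisense gene, Gm34868. Strandedness of the libraries is not given in the sources used here. Levels of genes whose span used here takes in such an overlap may therefore hold reads of their neighbours.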

How the data were processed

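RNA of 2 WT and 2 Asxl1-/- MSPC libraries was analysed from the deposited FPKM table, in which the authors gave Cufflinks FPKM per library. Per the submitters' processing notes, the tools were TopHat2 2.0.3, Cufflinks 2.2.1 and Cuffdiff, and the build mm10; for annotation, kit and strandedness the sources used here give nothing. The authors' deposited Cuffdiff table gives group FPKM, log2 fold changes, p-values and q-values. The FPKM and log tables hold 4 further per-sample columns that match no sample of the series, and these were not used; the log table was not used here. For a symbol with several rows (260 of 23997) the row with the highest mean was kept, and 1 was added to file starts.

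The 11481 genes whose mean reached 1 FPKM were tested on log2(FPKM + 1) by lmFit and trended eBayes of limma 3.58.1 in R 4.3.3, with Benjamini-Hochberg adjustment over all of them at 0.05. Whether replicate libraries stem from different animals is not in the labels; p-values then measure only the spread between these samples, which may be technical. Fold changes on this scale understate the change of low genes. The procedure was tested on simulated data. Groups came from the genotype label. Ratios were tested with a two-sided exact permutation test.

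The 9 genes and all lists were chosen with earlier results of these data known. Named are the 9 genes, Asxl1, up to 3 genes with the smallest limma p in a list (not all are printed; 1 gene of the rule is not reported here), Gart, Tk1, Rrm2, Atf4, Asns, Mki67, Pcna and the 3 nearest profiles of Phgdh, Mthfd2 and Tyms. Marker genes of other cell types, Tyms-ps and overlapping neighbours are named beyond that rule. The 14 alternatives were leaving out each library, removing chromosome medians, dropping genes under 300 bp, pseudocounts of 0.1 and 0.5, a filter at 5 FPKM or none, untrended and robust eBayes, quantile normalization and scaling by median ratios; the comparison of 1 library with 1 library and the ratios with chromosome medians removed were added after seeing the data. Upstream windows come from RefSeq (GRCm38.p6), where all 9 genes matched and the window at the start used by the FPKM table was taken. Tables were made with pandas 2.3.3 and numpy 2.4.6 under Python 3.11.15, and figures with matplotlib 3.10.9.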

Additional observations from a re-analysis of the deposited data

How the results depend on the processing

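The 9 genes had 0 calls in every one of the 14 alternatives, with the lowest limma adjusted p at 0.417, and the median log2 fold change stayed negative in all of them. With 1 library left out, that median ran from -1.19 to -0.67, the number of the 9 genes with an unadjusted p under 0.05 ran from 1 to 6, and the number with the Asxl1-/- libraries below the WT libraries ran from 7 to 9; in such a fit the lone library of a group is assumed to vary like the other group. Calls over all genes, 3 with all libraries, numbered 1 with no filter, 0 without genes under 300 bp (918 at an unadjusted p under 0.05) and 1 to 8 with 1 library left out. The Shmt2 over Shmt1 difference was 2.01 at a pseudocount of 0.1; with chromosome medians removed, an alternative chosen after seeing the data, that of Phgdh over Tyms was -0.57 and that of Mthfd1l over Mthfd1 turned to -0.044. With 1 library left out, the sign turned in Psph (-0.89 to 0.15), Tyms (-0.82 to 0.15), Ncbp1 (-0.82 to 0.21), Mccc2 (-0.75 to 0.15) and Ubap2 (-0.94 to 0.086), each without WT replicate 1; in Csf1r (-2.39 to 0.50) and Itgam (-2.05 to 0.55) without WT replicate 2; and in Gldc (-0.056 to 3.04) and Cdh5 (-0.0072 to 3.01) without Asxl1-/- replicate 2. Between the libraries high in macrophage markers Tyms was at 0.48. The cause was not tested. Median ratio scaling and quantile normalization left 7 of 9 genes with the Asxl1-/- libraries below, where the share of all genes became 20.8% and 20.1%. The counts of 7 to 9 genes below with 1 library left out rest on a looser criterion. Leaving out a library can only keep or raise such a count. No share of all genes is given for these counts, so a rise to 9 does not strengthen the result. The read number per library is unknown, which limits the precision of the low Shmt1 and Tyms values.

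No paired analysis was possible because replicate numbers were given in accession order and the labels link no library of one group to one of the other.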

Other observations

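Some genes around this pathway differed widely between libraries of 1 group. Gldc, the glycine decarboxylase that breaks glycine down in mitochondria, stood at 8.72 FPKM in Asxl1-/- replicate 2 and at 0.361, 0.0216 and 0.134 FPKM in WT replicates 1 and 2 and Asxl1-/- replicate 1. The endothelial cadherin Cdh5 had the same pattern, at 7.11 FPKM in that library, at 0.01 FPKM in WT replicate 1 and listed at 0 in the others. Aldh1l1, the cytosolic formyl-folate dehydrogenase, stood at 7.76 FPKM in WT replicate 2 and at 1.26, 0.745 and 0.221 FPKM in WT replicate 1 and Asxl1-/- replicates 1 and 2. The glutamine and serine carrier Slc1a5 stood at 31.0 FPKM in WT replicate 1 and 30.6 FPKM in Asxl1-/- replicate 2, against 12.4 and 8.13 FPKM in WT replicate 2 and Asxl1-/- replicate 1. These genes were chosen after their values were seen.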
